A study of Homo sapiens with 12 samples.

Results

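Histone genes encode the proteins around which DNA is wound. The core histones H2A, H2B, H3 and H4 form the nucleosome, and linker histone H1 binds where DNA enters and leaves it. Most core and several linker histone genes are copied into RNA mainly in S phase, when new DNA needs packaging. Their mRNAs classically end in a conserved stem-loop, bound by the stem-loop binding protein SLBP, in place of a poly(A) tail. Other linker genes, such as H1-10, are expressed outside S phase and carry poly(A) tails. The genes described here are those named by the numbered symbols of the linker family (H1-) and of the clustered core families (H2AC, H2BC, H3C and H4C). They numbered 46 of 27146 genes with a value in any comparison: 4 of H1, 12 of H2A, 13 of H2B, 8 of H3 and 9 of H4. By RefSeq positions on GRCh38.p14, 33 lie on chromosome 6 and 11 on chromosome 1, and H1-10 lies on chromosome 3.

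The study sequenced RNA of MDA-MB-231 cells, a widely used line of human triple-negative breast cancer, kept for 48 h in DMSO (Ctrl) or in 2.5 µM of SAHA, compound 1 or a6. SAHA (vorinostat) inhibits histone deacetylases (HDACs). The labels call SAHA and compound 1 single-targeting, and a6 a compound against both HDACs and G-quadruplexes (G4s), folded structures of guanine-rich DNA or RNA. There were 3 libraries in each of 4 groups (12 together), from 1 line and at 1 dose and time.

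Each value comes from a comparison table that the authors made for 1 compound and Ctrl, and library depth is unknown here. Group means are given below because the files used hold 0 columns of values per library. Of the 46 genes, 29 had a value with SAHA, 46 with compound 1 and 19 with a6. The authors' deposited tables start at a mean normalized count of 2.44 (SAHA), 0.145 (compound 1) and 9.31 (a6), so counts of genes below describe those that cleared each floor. With compound 1, 27 of the 46 had a mean under 10. Markers of the line were checked in the authors' deposited SAHA table: VIM was at a mean normalized count of 21149 in Ctrl, CD44 at 8262 and AXL at 20938. Among genes chosen as low in this line, ESR1 and PGR were at 0.66 and 0.337 in Ctrl in the authors' deposited compound 1 table, but ERBB2 was at 2103 and EPCAM at 172 in the SAHA table. Of 12 markers of leukocytes, endothelium, fibroblasts and liver, 4 had a value in the authors' deposited SAHA table, and their summed level was 9.34 in Ctrl and 82.1 with SAHA. Fibroblast LUM rose by 7.03 and endothelial VWF by 4.03 on the log2 scale in the authors' deposited SAHA table, from Ctrl levels of 0.378 and 1.41; their part in the results was not tested. The a6 table held 0 of these 12.

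The promoters of 4 H2B genes are shown first, because 3 of them (H2BC4, H2BC11 and H2BC21) are the histone genes that passed the test in any comparison, and H2BC12 has the promoter most like that of H2BC11 among the 4 and did not pass. Each line is the 250 bases before the RefSeq start on GRCh38.p14, read 5′ to 3′ on the gene's strand (minus for all 4). Capitals mark the octamer ATTTGCAT, an element known from H2B promoters and bound by POU2F1, the CCAAT box and the TATA element TATAAA, on either strand. They lie at chr6:27132796-27133045 (H2BC11), chr6:27146859-27147108 (H2BC12), chr1:149886683-149886932 (H2BC21) and chr6:26123927-26124176 (H2BC4).
H2BC11: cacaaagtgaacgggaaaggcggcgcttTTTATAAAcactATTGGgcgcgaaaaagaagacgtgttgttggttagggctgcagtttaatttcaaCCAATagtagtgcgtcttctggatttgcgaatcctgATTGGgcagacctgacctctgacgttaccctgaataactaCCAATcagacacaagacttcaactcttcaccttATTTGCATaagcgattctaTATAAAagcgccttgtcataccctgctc
H2BC12: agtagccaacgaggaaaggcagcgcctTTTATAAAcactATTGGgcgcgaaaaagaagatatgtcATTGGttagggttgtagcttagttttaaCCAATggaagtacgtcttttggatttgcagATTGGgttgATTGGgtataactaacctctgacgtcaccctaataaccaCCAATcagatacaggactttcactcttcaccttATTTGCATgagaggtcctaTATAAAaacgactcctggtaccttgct
H2BC21: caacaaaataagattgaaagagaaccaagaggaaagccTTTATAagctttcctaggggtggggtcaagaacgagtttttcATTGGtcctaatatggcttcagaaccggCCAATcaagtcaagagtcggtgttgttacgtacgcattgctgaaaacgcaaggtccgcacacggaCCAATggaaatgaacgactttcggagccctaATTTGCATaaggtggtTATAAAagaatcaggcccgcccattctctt
H2BC4: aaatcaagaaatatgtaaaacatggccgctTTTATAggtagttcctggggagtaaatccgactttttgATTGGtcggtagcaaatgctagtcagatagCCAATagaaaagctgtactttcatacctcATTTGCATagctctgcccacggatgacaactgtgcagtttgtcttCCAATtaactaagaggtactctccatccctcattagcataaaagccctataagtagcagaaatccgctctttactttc

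All 4 hold 1 octamer, whose first base lies at -47 from the start site in H2BC11, at -46 in H2BC12 and H2BC21 and at -123 in H2BC4. H2BC11 and H2BC12 were identical at 79.5% of 254 aligned columns, and the other pairs among the 4 at 51.1% to 54.6%. RefSeq promoters were found for 41 of the 46 genes. The octamer ATTTGCAT was present on either strand in 10 of 13 H2B and 7 of 11 H2A promoters and in none of the 3 H1, 7 H3 or 7 H4 promoters. It occurred in 1.66% of all 27305 promoters of the same length. CCAAT was present in 34 of 41 histone promoters (33% of all promoters) and TATAAA in 32 of 41 (11.1% of all). Many H2A and H2B genes are arranged head to head within this distance, so that 1 octamer can be counted for both genes. A match is a description of the letters only.

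The ends of the mRNAs are shown next, because they decide how a histone RNA can be captured. A stem-loop was searched beyond the stop codon in GENCODE 29 coding transcripts, on the sense strand, as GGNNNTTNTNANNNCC with the first 6 bases complementary to the last 6. It was present beyond the stop in 47 of 18708 genes (0.251%) with a coding transcript that reaches at least 60 bases past it. Coding models were found for 42 of the 46 genes, and 21 of these reached at least 60 bases beyond the stop. Of those 21, 17 held the stem-loop and 14 held the poly(A) signal AATAAA in their last 45 bases, 10 of them both. A further gene with a shorter model, H4C11, brought the number with a stem-loop to 18. Among those of the 21 without one were H1-10, H2AC11 and H2BC11. A stem with a mismatch, or one in bases left out of the transcript models, would be missed by this search. The lines below give the stem-loop in capitals with 5 bases on each side, for some of the genes whose values are described below. Others with a stem-loop, among them H2AC13, H2BC13, H2BC15 and H4C14, are not printed.
H2BC4: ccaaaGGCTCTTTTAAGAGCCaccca
H2BC5: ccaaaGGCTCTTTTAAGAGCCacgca
H2BC21: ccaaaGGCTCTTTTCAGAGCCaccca
H2AC6: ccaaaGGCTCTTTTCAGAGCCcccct
H3C10: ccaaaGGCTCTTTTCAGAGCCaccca
H4C8: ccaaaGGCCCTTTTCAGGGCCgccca
H4C9: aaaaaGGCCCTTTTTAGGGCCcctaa

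The letters of the stem separated the H4 genes from the others, while the loop TTTC was found in both. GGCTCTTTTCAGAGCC was found in 10 genes of H2A, H2B and H3, and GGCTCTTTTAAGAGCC in 2 genes, H2BC4 and H2BC5. The 6 H4 genes had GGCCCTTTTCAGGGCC (3 genes) or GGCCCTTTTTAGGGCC (3 genes). Whether poly(A) RNA was selected is not given here. Of 16 RNAs without a poly(A) tail, 1 had a value in the authors' deposited SAHA and a6 tables and 4 in the compound 1 table. That 1 was the signal recognition particle RNA RN7SL1, at a Ctrl level of 172 computed from the authors' deposited SAHA table.

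In Ctrl cells the linker gene H1-10 had the highest level among histone genes whose model reaches past the coding bases. Computed from the authors' deposited SAHA table and per kilobase of exon in GENCODE 29, the Ctrl level was 4183 for H1-10. The S-phase linker gene H1-2 was at 1231 and H2BC12 at 2816 per kilobase, but their models hold coding bases alone, which raises a value per kilobase. The H4 gene H4C9 was at 317 per kilobase, H2BC5 at 191, H2AC6 at 130 and H2BC11 at 92.0. The lowest value per kilobase in that table was 1.25, for H4C14. The spread between libraries of these levels is not in the files used, so neighbours in this order were not tested. Many histone genes are near-identical copies, among them H3C14 and H3C15, H4C14 and H4C15, and H2AC18 and H2AC19, and how the authors' counting split their reads is uncertain.

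**Figure D1:**
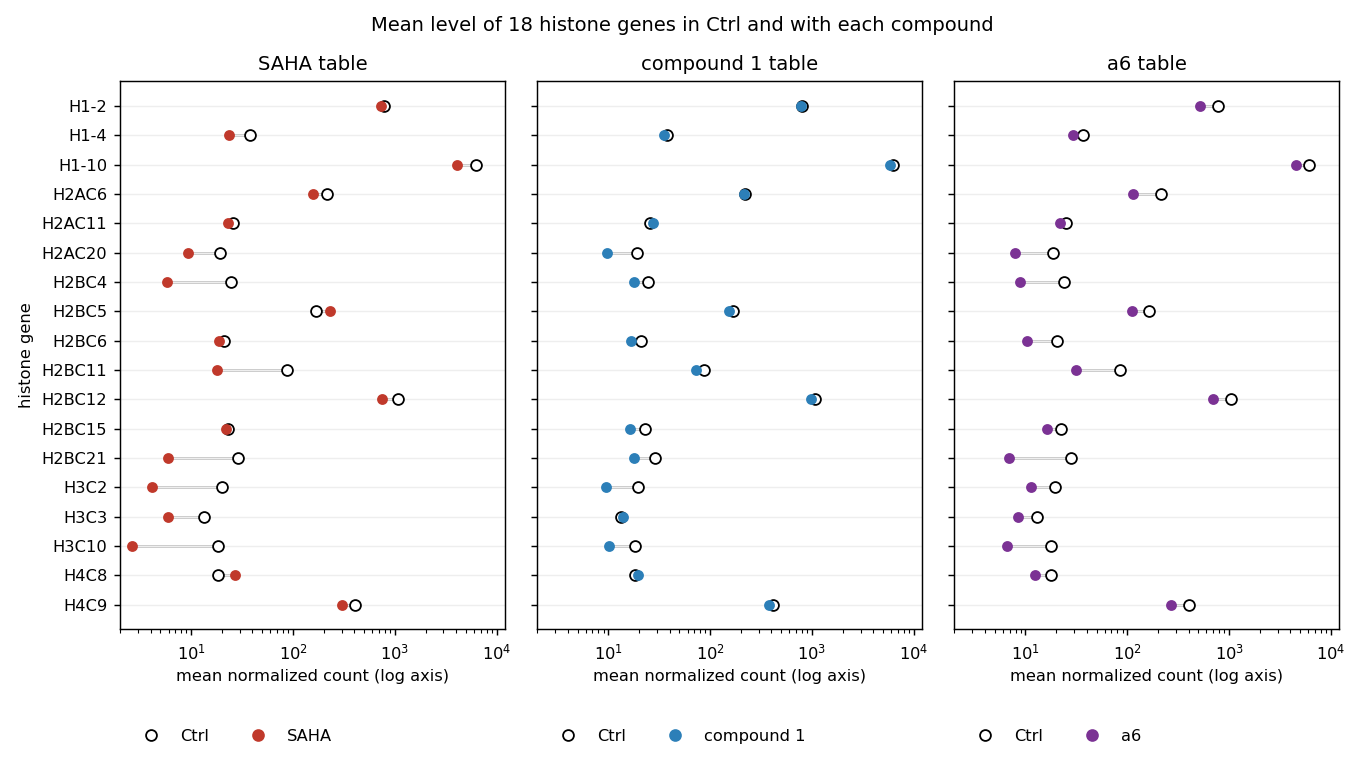
Mean normalized count (log axis) of 18 of the 19 histone genes present in every table, in Ctrl (open circles) and with the compound (filled circles), as group means of 3 libraries computed from the authors' deposited tables. H2BC11 moved from 87.4 to 17.8 with SAHA and from 85.4 to 31.7 with a6, while H1-10 stayed at the right of each panel.

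SAHA asks what inhibition of HDACs alone does to histone RNA. With it 3 H2B genes fell, H2BC11, H2BC21 and H2BC4, each by more than 2 on the log2 scale. No histone gene rose, and the 4 linker genes did not pass the test. By the DESeq2 Wald test of the authors (adjusted p under 0.05), 3 of 29 histone genes (10.3%) were lower, beside 3.02% of all 18534 genes, and 0 were higher, beside 4.53% of all genes. At an unadjusted p under 0.05, 5 of 29 (17.2%) were lower, beside 8.27% of all genes, and 0 higher, beside 10.2%. The same 5 changed at least 2-fold, beside 3.29% of all genes that were lower by that rule. P-values measure the spread between these libraries, which the labels call biological replicates without naming separate cultures.

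H2BC11, at chr6:27132316-27132795 on the minus strand, encodes a core histone H2B. Group means computed from the authors' deposited table gave it 87.4 normalized counts in Ctrl and 17.8 with SAHA. The level was thus 4.91-fold lower, log2 fold change -2.30 (standard error, SE, 0.42, adjusted p = 4.32e-06; the authors' deposited table). H2BC21, at chr1:149884459-149886682, is an H2B gene of the smaller cluster on chromosome 1. It was at 28.8 in Ctrl and 5.87 with SAHA, log2 fold change -2.29 (SE 0.65, adjusted p = 0.00996; the authors' deposited table). H2BC4, at chr6:26113170-26123926, was at 24.4 in Ctrl and 5.77 with SAHA, log2 fold change -2.08 (SE 0.66, adjusted p = 0.0277; the authors' deposited table). These 3 genes had low counts, and H2BC21 and H2BC4 were under 10 with SAHA.

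The other H2B genes were not uniform. H2BC12, whose promoter is the closest to that of H2BC11 among those shown above, was at 1073 in Ctrl and 741 with SAHA, log2 fold change -0.53 (SE 0.28, adjusted p = 0.286; the authors' deposited table). Promoters of the other H2B genes were not aligned. H2BC5 was at 167 in Ctrl and 230 with SAHA, a log2 fold change of 0.46 with a standard error of 0.29 (the authors' deposited table). Over the 10 H2B genes of that table the log2 fold change ran from -2.30 to 0.46, with 9 below 0 and 1 above.

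No H3 gene passed the adjusted test, although the most negative log2 fold change among histone genes belonged to H3C10. H3C10, at chr6:27810051-27810536, was at 18.2 in Ctrl and 2.64 with SAHA, log2 fold change -2.79 (SE 0.97, adjusted p = 0.0536; the authors' deposited table). H3C2, at chr6:26031589-26032099, was at 19.9 and 4.14, log2 fold change -2.27 (SE 0.79, adjusted p = 0.0527; the authors' deposited table). When the Wald test was adjusted over genes with a mean count of 10 or more, H3C10 (adjusted p = 0.0485) and H3C2 (0.0476) passed. The count of lower histone genes became 5, beside 576 of all 15490 genes so limited. Without the limit 560 of 18534 genes were lower. The 11 histone genes with a mean under 10 were left out. H3C3 had -1.19 (SE 0.86; the authors' deposited table).

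The linker genes had log2 fold changes closer to 0 than the 3 H2B genes that fell, but not closer than all core genes. H1-10, a linker histone whose RNA is not tied to S phase, was at 6303 and 4086, log2 fold change -0.63 (95% interval -1.37 to 0.12; the authors' deposited table). H1-2 had -0.10 with an interval of -0.68 to 0.48, and H1-4 had -0.69 with -1.66 to 0.27 (the authors' deposited table). All 3 intervals include 0.

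Among H2A genes, the log2 fold change was -0.47 (SE 0.32) for H2AC6, -0.16 (SE 0.55) for H2AC11 and -1.03 (SE 0.68) for H2AC20 in the authors' deposited table. All 7 H2A genes measured were below 0, from -1.34 to -0.16, and 0 passed the test. Among H4 genes it was -0.45 (SE 0.29) for H4C9, 0.56 (SE 0.60) for H4C8 and -0.97 (SE 1.08) for H4C3 in the authors' deposited table. In all, 25 of the 29 log2 fold changes were below 0 (86.2%, beside 50.7% of all genes), and the median was -0.62, beside -0.01 over all genes. The 4 above 0 were H2BC5, H3C12, H4C8 and H4C14. In bulk RNA, fewer cells expressing these genes and less histone RNA per cell cannot be told apart.

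**Figure D2:**
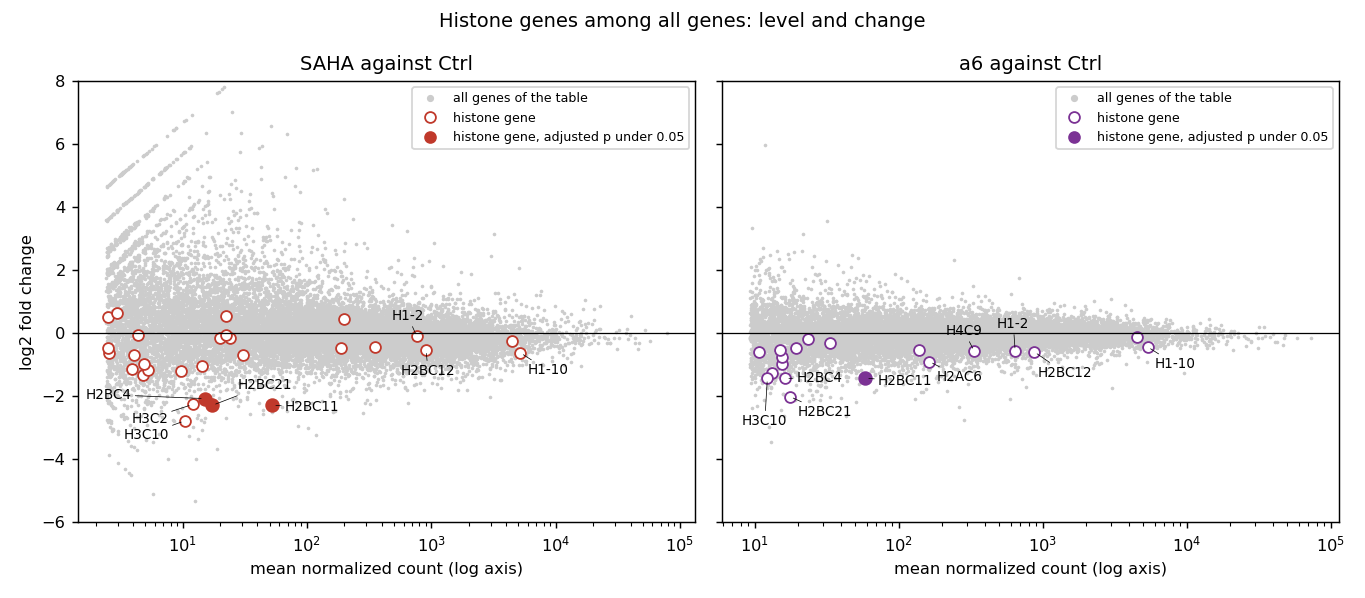
Log2 fold change against mean normalized count (log axis) for every gene of the authors' deposited SAHA and a6 tables (grey) and for the histone genes (circles; filled where the adjusted p was under 0.05). With SAHA the 3 filled genes lie between -2.30 and -2.08, and with a6 all 19 circles lie below 0, 1 of them filled.

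For a6 the question is what a single compound against both targets does. H2BC11 fell with it, and it was the only histone gene past the test. By the DESeq2 Wald test of the authors (adjusted p under 0.05), 1 of 19 histone genes (5.26%) was lower, beside 0.341% of all 15255 genes, and 0 were higher, beside 0.243% of all genes. H2BC11 was at 85.4 in Ctrl and 31.7 with a6, 2.69-fold lower, log2 fold change -1.43 (SE 0.37, adjusted p = 0.0316; the authors' deposited table).

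At an unadjusted p under 0.05, 8 of 19 (42.1%) were lower, beside 4.35% of all genes, and 0 were higher, beside 3.06%. Of these, 4 changed at least 2-fold, beside 1.63% of all genes that were lower by that rule. The 8 span every family, and the adjusted p of the other 7 was 0.155 or more in the authors' deposited table. H2BC21 was at 28.2 in Ctrl and 6.97 with a6, log2 fold change -2.01 (SE 0.65, adjusted p = 0.155; the authors' deposited table). H2BC4 was at 23.8 and 8.80, log2 fold change -1.44 (SE 0.62; the authors' deposited table). H3C10 was at 17.9 and 6.62, log2 fold change -1.43 (SE 0.73; the authors' deposited table).

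The other 4 genes, of higher counts, had smaller log2 fold changes. H2AC6 was at 213 in Ctrl and 114 with a6, log2 fold change -0.90 (SE 0.30, adjusted p = 0.176; the authors' deposited table). H2BC12 was at 1050 and 695 (-0.59, SE 0.22), H1-2 at 773 and 516 (-0.58, SE 0.24) and H4C9 at 402 and 269 (-0.58, SE 0.26; the authors' deposited table). H4C9 lies within the RefSeq span of H2BC12 on the other strand, and whether counting used strand is not given, so their values may share reads.

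The linker genes H1-10 and H1-4 had intervals that include 0 with a6. The authors' deposited table gives H1-10 a log2 fold change of -0.44 (-1.13 to 0.26) and H1-4 one of -0.33 (-1.24 to 0.59). H2BC5 was at 163 in Ctrl and 112 with a6, log2 fold change -0.55 (SE 0.36; the authors' deposited table). The log2 fold change was -0.77 for H3C2 (SE 0.61), -0.60 for H3C3 (SE 0.74), -0.54 for H4C8 (SE 0.65), -0.19 for H2AC11 (SE 0.56) and -1.25 for H2AC20 (SE 0.73; the authors' deposited table). H4C3 has no value with a6. All 19 log2 fold changes were below 0, beside 54.1% of all genes, and their median was -0.59, beside -0.03 over all genes. The same 19 genes had a median of -0.53 with SAHA and -0.12 with compound 1. The comparisons share the Ctrl libraries, so a chance deviation of those libraries would enter each of them.

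**Figure D3:**
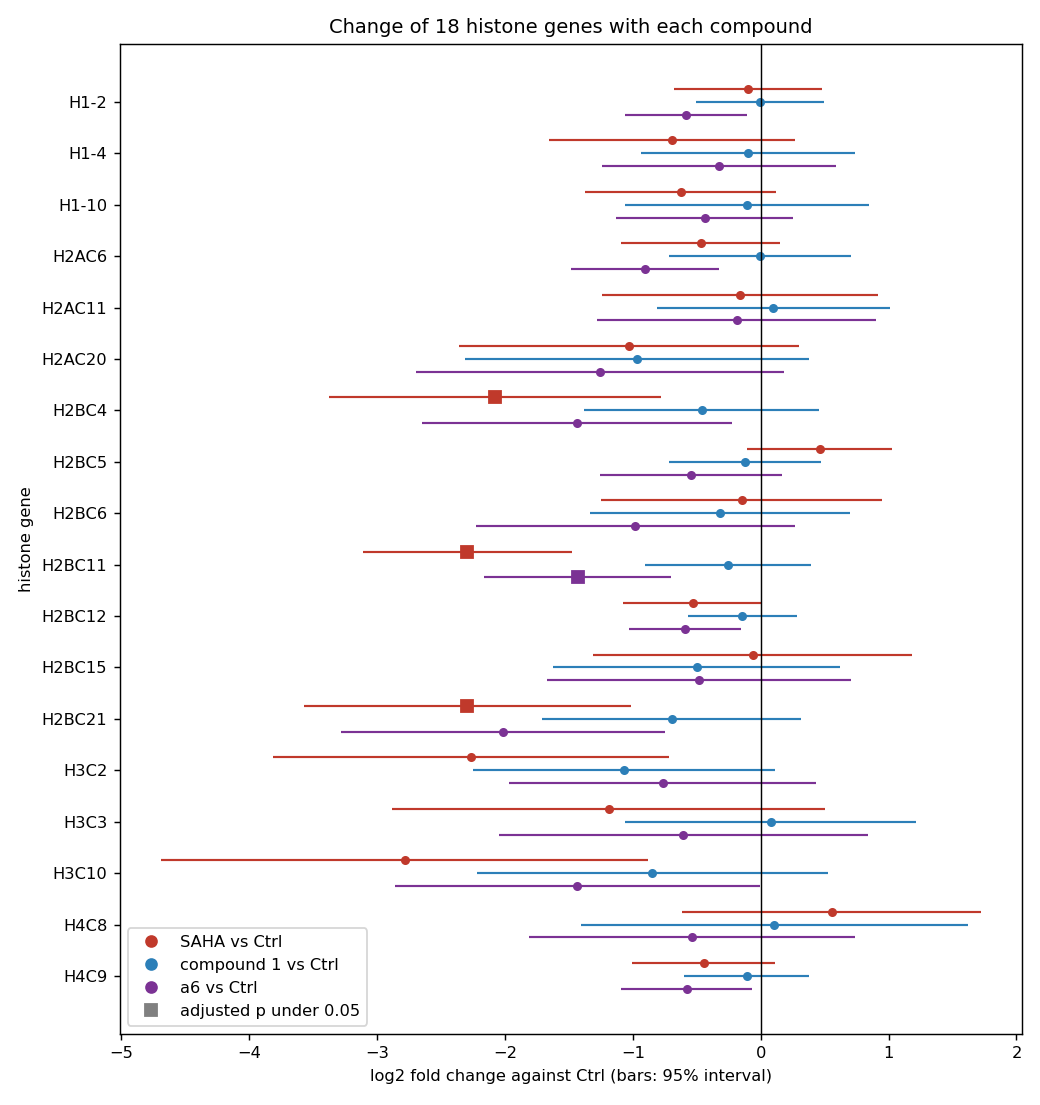
Log2 fold change against Ctrl with its 95% interval for 18 of the 19 histone genes in every table, for SAHA (red), compound 1 (blue) and a6 (purple), from the authors' deposited tables; squares mark an adjusted p under 0.05. Squares appear for H2BC4, H2BC11 and H2BC21 with SAHA and for H2BC11 with a6.

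With compound 1 no histone gene passed the test. By the DESeq2 Wald test of the authors (adjusted p under 0.05), 0 of 46 were called in either direction, beside 0% of all 27126 genes. At an unadjusted p under 0.05 it was also 0 of 46, beside 54 genes in all (0.199%). H2BC11 was at 87.1 in Ctrl and 73.0 with compound 1, log2 fold change -0.26 (95% interval -0.90 to 0.39; the authors' deposited table). H2BC21 had -0.70 with -1.71 to 0.32, and H2BC4 had -0.46 with -1.38 to 0.46 (the authors' deposited table). H2BC12 had -0.14 (SE 0.22) and H2BC5 had -0.12 (SE 0.30; the authors' deposited table).

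Of the linker genes, H1-10 had -0.11 (SE 0.49), H1-4 had -0.10 (SE 0.43) and H1-2 had 0.00 (SE 0.26; the authors' deposited table). H3C2 had -1.07 (SE 0.60), H3C10 had -0.85 (SE 0.70) and H3C3 had 0.08 (SE 0.58; the authors' deposited table). Among H2A and H4 genes, H2AC20 had -0.97 (SE 0.69), H2AC11 had 0.10 (SE 0.47) and H2AC6 had 0.00 (SE 0.36), and H4C9 had -0.11 (SE 0.25), H4C8 had 0.11 (SE 0.77) and H4C3 had -2.04 (SE 1.14; the authors' deposited table). In all, 31 of the 46 were below 0 (67.4%, beside 48.6% of all genes), with a median of -0.16, beside 0.01 over all genes. The 17 genes found in this table alone were among those with a mean under 10, and their standard errors reached 4.08 on the log2 scale.

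The compounds were then compared with each other at the same dose and time. Of 3 pairs of compounds, 1 gave a histone gene past an adjusted p of 0.05 in a two-sided z test on the difference of deposited log2 fold changes. H2BC11 was lower with SAHA than with compound 1 by a log2 difference of -2.04 (SE 0.53, 95% interval -3.08 to -0.997, adjusted p = 0.0184; computed from the authors' deposited tables). This was 1 of 29 histone genes (3.45%), beside 0.481% of all 18514 genes lower, and 0 of 29 were higher, beside 0.583%. At an unadjusted p under 0.05 there were 2 of 29 (6.9%), H2BC11 and H2BC4, a share no higher than the 7.26% of all genes in either direction. H2BC4 had a difference of -1.62 with an interval of -3.21 to -0.03 and an adjusted p of 0.672, and H2BC21 had -1.60 with -3.23 to 0.03.

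Between a6 and SAHA 0 of 19 histone genes passed in either direction (z test), beside 0.197% of all genes lower and 0.059% higher with a6. At an unadjusted p under 0.05 there was 1 of 19 (5.26%), a share no higher than the 5.56% of all genes in either direction. This was H2BC5, with a log2 difference of a6 from SAHA of -1.01, an interval of -1.92 to -0.10 and an adjusted p of 0.766 (z test). For H2BC11 the difference of a6 from SAHA was 0.87 with an interval of -0.23 to 1.96, and for H2BC21 it was 0.28 with -1.52 to 2.08. The interval of H2BC21 reaches past 2-fold on both sides of 0. H2BC12 differed by -0.06 with -0.76 to 0.64.

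Between a6 and compound 1 the test also gave 0 of 19 in either direction, beside 0.0262% of all genes lower and 0.00656% higher with a6. At an unadjusted p under 0.05 there was 1 of 19, beside 1.46% of all genes in either direction. This was H2BC11, with a log2 difference of -1.17, an interval of -2.15 to -0.20 and an unadjusted p of 0.0183. H2AC6 had -0.90 with an interval of -1.82 to 0.02, and H2BC21 had -1.32 with -2.94 to 0.30.

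H2A and H2B genes that start head to head on opposite strands were set side by side. In all, 8 such pairs start within 1000 bases of each other, and 6 had both genes in the SAHA table. Each of the 3 H2B genes that fell with SAHA is in such a pair: H2BC21 starts 236 bases from H2AC20, H2BC4 starts 246 from H2AC6 and H2BC11 starts 248 from H2AC11. With SAHA, the authors' deposited table has log2 fold changes of -2.30 for H2BC11 and -0.16 for H2AC11, -2.29 for H2BC21 and -1.03 for H2AC20, and -2.08 for H2BC4 and -0.47 for H2AC6. These H2B genes are described because they passed the test, so their estimates below those of their neighbours are largely fixed by that choice. In the other 3 pairs the H2A gene had the lower estimate: -0.68 (SE 1.24) for H2AC12 beside -0.53 for H2BC12, -1.15 (SE 1.21) for H2AC13 beside -0.47 for H2BC13, and -0.62 (SE 1.51) for H2AC15 beside -0.06 for H2BC15 (the authors' deposited table). The H2B gene was thus lower in 3 of 6 pairs and the H2A gene in 3 of 6. With a6 both genes had a value in the first 3 pairs alone, at -1.43 for H2BC11 and -0.19 for H2AC11, -2.01 for H2BC21 and -1.25 for H2AC20, and -1.44 for H2BC4 and -0.90 for H2AC6 (the authors' deposited table). The difference within a pair was not tested.

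**Figure D4:**
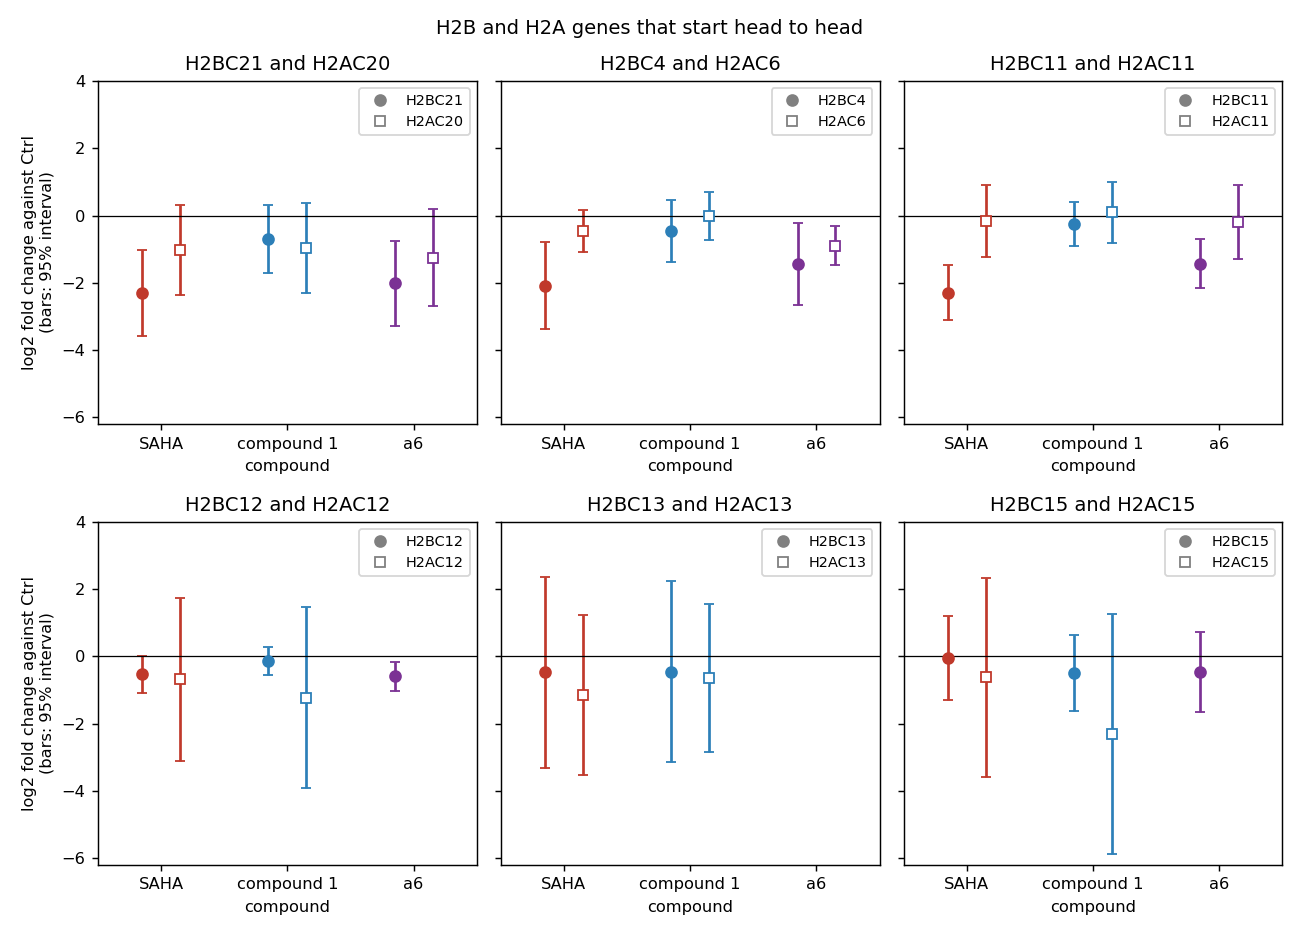
Log2 fold change against Ctrl (bars are 95% intervals) for the 6 pairs of H2B (filled circles) and H2A genes (open squares) that start head to head and both have a value with SAHA, with each compound, from the authors' deposited tables; a missing point has no value. With SAHA the circle lies below the square in 3 panels, those of the H2B genes that passed the test, and above it in the other 3.

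Histone RNA is made, processed and packaged with the help of other genes, which were measured as lists. For DNA replication and S phase, 7 of 32 genes fell with SAHA and 0 rose, with a median log2 fold change of -0.41. Of all genes, 3.02% were lower and 4.53% higher with SAHA by the same Wald test (adjusted p under 0.05), with a median of -0.01. Examples from the authors' deposited table are TYMS, which makes thymidylate, at -1.41 (SE 0.25, adjusted p = 2.23e-06), LIG1, which joins Okazaki fragments, at -1.12 (SE 0.28, adjusted p = 0.00268), and CDC45, which belongs to the helicase that opens replication forks, at -1.07 (SE 0.29, adjusted p = 0.00644). With a6, 0 of the 32 passed and the median was -0.01, and with compound 1 it was 0 of 32 and 0.03. Of all genes, 0.341% were lower and 0.243% higher with a6, and 0% were called with compound 1. The same 3 genes had -0.25, -0.38 and -0.16 with a6 in the authors' deposited table. The part of S-phase share in the histone values was not tested.

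Among 13 genes listed for histone gene transcription, CCNA2, the cyclin partner of CDK2 in S phase, had -1.05 with SAHA (SE 0.31, adjusted p = 0.0127; the authors' deposited table). It was the only 1 of the 13 that fell, beside 3.02% of all genes, and 0 rose, beside 4.53%. NPAT, the coactivator of the histone clusters, had -0.45 (SE 0.46) with SAHA and -0.54 (SE 0.40) with a6 in the authors' deposited tables. Among 17 genes for 3′ end processing and decay, 0 passed in any comparison, and SLBP had -0.30 (SE 0.28) with SAHA and -0.07 (SE 0.22) with a6 in the authors' deposited tables. Of 22 chaperone and assembly genes 3 fell with SAHA, beside 3.02% of all genes, and 0 rose, beside 4.53%. The 3 were CHAF1B, a subunit of chromatin assembly factor 1, at -0.91 (SE 0.27), HJURP, the chaperone of CENPA, at -0.92 (SE 0.28), and ASF1B, a chaperone of H3 and H4, at -0.85 (SE 0.27; the authors' deposited table). With a6 and with compound 1 these 3 lists gave 0 calls, and their medians lay between -0.06 and 0.08.

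Histone variants, whose genes lie outside the clusters, were measured for 9 of 17 listed genes with SAHA. Of these 9, 2 fell, beside 3.02% of all genes, and 0 rose, beside 4.53%. H2AX, the H2A variant phosphorylated at DNA breaks, fell from 4464 to 2188, log2 fold change -1.03 (SE 0.29, adjusted p = 0.00798; the authors' deposited table). CENPA, the H3 variant of centromeres, fell from 556 to 300, log2 fold change -0.89 (SE 0.27, adjusted p = 0.0211; the authors' deposited table). With a6, 0 of 9 variants passed, and H2AX had 0.14 (SE 0.21) and CENPA 0.10 (SE 0.25; the authors' deposited table). H3-3A and H3-3B, which encode the replacement histone H3.3, had -0.17 (SE 0.24) and -0.26 (SE 0.23) with SAHA, and -0.05 (SE 0.20) and 0.00 (SE 0.20) with a6 in the authors' deposited tables.

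**Figure D5:**
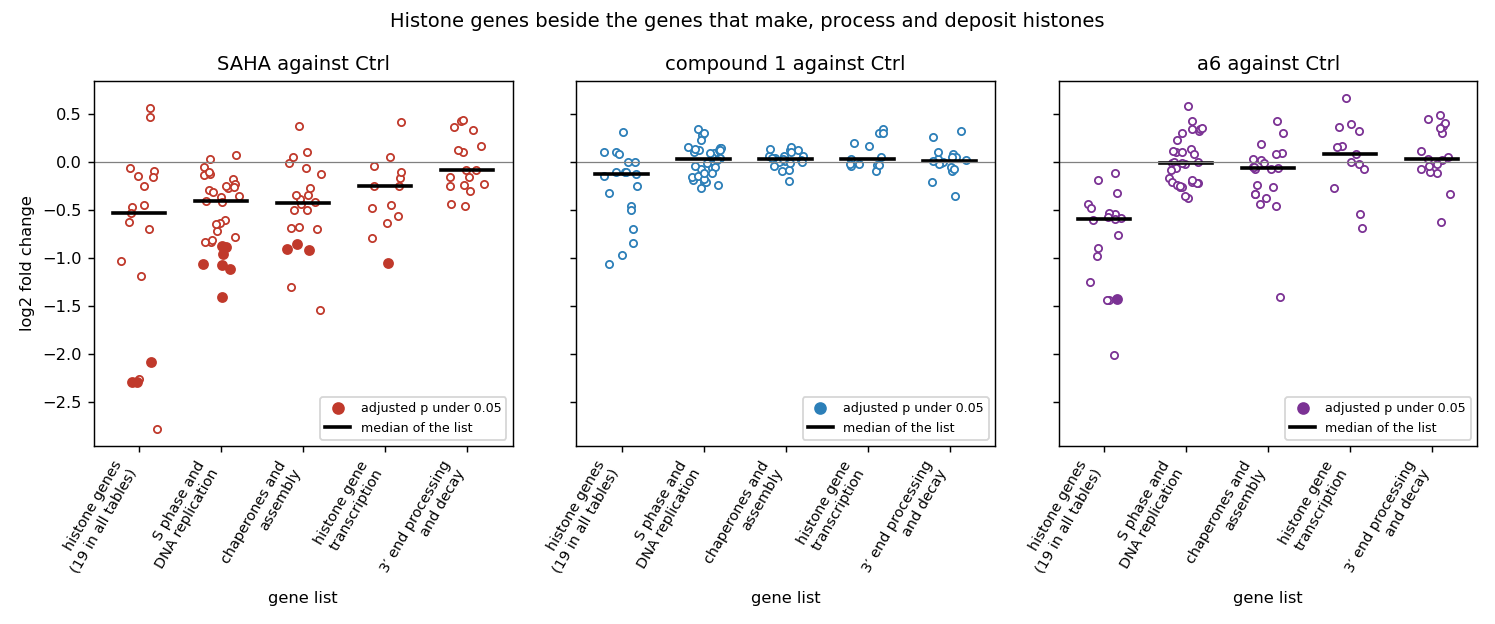
Log2 fold change of the 19 histone genes present in every table and of 4 lists of genes that make, process and deposit histones, for each compound, from the authors' deposited tables; filled points passed an adjusted p under 0.05 and black bars are medians. With a6 the histone genes have a median of -0.59 and the S phase list -0.01; with SAHA the medians are -0.53 and -0.41.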

How the data were processed

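RNA of 12 libraries (4 groups of 3) was sequenced. Per the submitters' processing notes, cutadapt, DESeq2 and build GRCh38 (hg38) were used. The aligner, read counter, strand setting and versions were not given in the sources used here. For each compound against Ctrl the authors deposited a signal per gene: by its header, the normalized count averaged over both groups. The authors deposited with it, per the file headers, the log2 fold change and its standard error. Per the file headers they also deposited the Wald statistic, used as a score, and the p-value before and after adjustment. The number of columns with values of single libraries used was 0, so their depth is unknown. Lists of changed genes that the authors deposited served to check their rule (unadjusted p under 0.05 and at least 2-fold), with 0 mismatches.

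The authors' DESeq2 Wald test of each compound against Ctrl was taken as deposited, at an adjusted p under 0.05 over its whole table. Levels in each group follow from its mean count and fold change, given 3 libraries in both groups. Compounds were compared by subtracting log2 fold changes; the error was the square root of the sum of squared standard errors, and two-sided p-values of a z test were adjusted (Benjamini-Hochberg) over all genes that both tables hold. Ctrl levels from different tables agreed, after a constant, within a standard deviation of 0.00131 to 0.00326 in log2, so Ctrl was treated as shared, which makes the z test conservative. It was checked on simulated data.

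Values are given for the linker genes except 1, which is counted in the totals but not reported here by name, every gene past an adjusted p of 0.05 in any comparison, every gene with an unadjusted p under 0.05 against Ctrl, the 3 genes of each core family with the highest mean count with SAHA, and at most 3 called genes per list and direction. Other genes named were chosen after their values were seen. The histone genes, the lists and the alternatives were chosen with earlier results of these data known. Promoters and positions come from RefSeq (GRCh38.p14), which matched 46 of 46 genes, and transcripts, and the strand of genes without a promoter entry, from GENCODE 29. RefSeq has 27 further symbols of the same pattern, not analysed here. Python 3.11.15 with pandas 2.3.3, scipy 1.17.1 and statsmodels 0.14.6 was used.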

Additional observations from a re-analysis of the deposited data

Results flagged for a closer look

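One value differed between compounds by a test of the difference itself. The change of H2BC11 with SAHA minus its change with compound 1 was -2.04 in log2 (SE 0.53, adjusted p = 0.0184, z test; computed from the authors' deposited tables). H2BC11 was at 17.8 with SAHA and at 73.0 with compound 1, from Ctrl levels of 87.4 and 87.1.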

How the results depend on the processing

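The count of histone genes lower with SAHA was 3, beside 560 of all 18534 genes. It became 5 with an unadjusted p under 0.05 and at least 2-fold, beside 609 of 18534. Among genes whose mean count was 10 or more it was also 5, beside 576 of 15490. Both rules added H3C2 and H3C10. The count lower with a6 was 1, and it became 0 at an adjusted p under 0.01 and 4 with an unadjusted p under 0.05 and at least 2-fold. The count lower with SAHA than with compound 1 was 1, and it became 0 at an adjusted p under 0.01. The other 67 counts kept within 1.5 times the reported value and 0 results changed direction. Most of these counts were 0 as reported and stayed 0. At an adjusted p under 0.01 the count lower with SAHA was 2, without H2BC4, which this limit treats as kept. Adjusting again over all genes of a comparison repeated the deposited adjustment, so it could change nothing. An error correlation of 0.5 for the shared Ctrl gave an adjusted p of 1.34e-05 for H2BC11 between SAHA and compound 1, and called 0 histone genes between a6 and either other compound. Centring subtracted the median log2 fold change (-0.034 with SAHA, 0.014 with compound 1, -0.032 with a6) and moved the H2BC11 difference between SAHA and compound 1 from -2.04 to -1.99; no histone call changed. Removing a lowess trend on GC content, added after seeing the data, changed no call among the histone genes that could be matched. The matches were 27 of 29 with SAHA, 42 of 46 with compound 1 and 17 of 19 with a6. H3C2 had no match, so its result under this setting is unknown. With SAHA the removal moved all calls from 839 higher and 560 lower (59.97% higher) to 861 and 369 (70% higher). No paired analysis was possible because the files used hold no values per library; for the same reason no replicate could be left out. Mean counts under 10, in 11 of 29 histone genes with SAHA and 27 of 46 with compound 1, limit what could be called.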

Other observations

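Genes close to the histone genes above were read in the same tables. H1-10-AS1, a transcript on the other strand that overlaps H1-10, was at 3012 in Ctrl and 2034 with SAHA, log2 fold change -0.57 (SE 0.39; the authors' deposited table), beside -0.63 for H1-10. With a6 it had -0.51 (SE 0.35), beside -0.44 for H1-10, and with compound 1 it had -0.10 (SE 0.50), beside -0.11 (the authors' deposited tables). Whether counting used strand is not given, so reads of this pair cannot be told apart.

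H3-2, an H3 gene of the chromosome 1 cluster whose symbol falls outside the naming pattern, had values above 0 with each compound. The authors' deposited tables give it log2 fold changes of 0.73 (SE 0.72) with SAHA, 0.57 (SE 0.75) with compound 1 and 1.17 (SE 0.66) with a6, from a Ctrl level of 13.4, and none passed the test. The H2B pseudogenes H2BC19P and H2BC20P had -0.81 and -0.47 with SAHA and -0.81 and -0.85 with a6, with SEs from 0.54 to 0.67 (the authors' deposited tables).

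The 13 mitochondrially encoded mRNAs, most of which carry short poly(A) tails of their own, gave 0 calls with each compound. Their median log2 fold change was 0.06 with SAHA, -0.01 with a6 and -0.23 with compound 1 in the authors' deposited tables, and with compound 1 0 of 13 were above 0. RN7SL1 had -0.18 (SE 0.46) with SAHA and 0.74 (SE 0.40) with a6 in the authors' deposited tables.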
